A study of Chlamydomonas reinhardtii with 20 samples.

Results

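Transcript levels of 3 carotenoid genes were followed across all 10 groups of an RNA-seq series on the green alga Chlamydomonas reinhardtii. They are Cre12.g509650 (PDS1, phytoene desaturase), Cre02.g082550 (ZEP1, zeaxanthin epoxidase) and Cre04.g221550 (CVDE1, violaxanthin de-epoxidase). They were chosen by name and function, with earlier results of these data known. All 3 are among the 17737 gene IDs of the deposited table. The table gives IDs alone, so the gene names are those under which the IDs were chosen. The series concerns acclimation to light that depends on bilins, the linear tetrapyrroles that heme oxygenase makes from heme.

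Carotenoids are made in the chloroplast, where phytoene desaturase carries out an early step by adding double bonds to the colourless phytoene. The xanthophyll cycle runs later in the pathway. Violaxanthin de-epoxidase turns violaxanthin into zeaxanthin in bright light, zeaxanthin epoxidase turns it back, and zeaxanthin takes part in the safe loss of excess light energy. The algal de-epoxidase CVDE1 is not related to the de-epoxidase of land plants.

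The 20 libraries came from 4 strains, with 2 libraries in each group. The wild type 4A+ and the heme oxygenase mutant hmox1 were harvested at 4 h of white light, and each was grown either without biliverdin (BV, the bilin product of heme oxygenase) or with 0.1 mM of it. The complemented lines ho1C1 and ho1C2, both derived from hmox1, were sampled without BV in the dark, after 0.5 h and after 4 h of light. All cells had grown in darkness on acetate medium that held 0.5% methanol, also where no BV was given, and the light was 150 µmol photons per square metre per second. The labels of single samples give 4 h, the protocol text also gives the short exposure, and the light is called low in the series' own description. The sources used here do not say how the complementing gene was driven or whether each line is 1 clone. Replicates are called biological with no word on separate cultures, and the spread behind each p-value is that between these samples, which may be technical.

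Levels are taken to be RPKM (reads per kilobase of gene length and per unit of library size), a unit inferred from the values. Setting levels of different genes side by side depends on this unit. Total read counts are not in the table, and relative depth read from the steps in low values ran from 0.627 to 2.02. Replicates lay close together, with a median absolute log2 difference over genes of 0.07 to 0.0886 in 9 groups and 0.155 in hmox1 without BV. The targeted gene HMOX1 is not analysed here, so the strain labels were not checked against it. Differences were tested with limma on log2(RPKM + 1) over 13871 genes, with p-values adjusted by the Benjamini-Hochberg method over all of them and a threshold of 0.05. In a bulk culture, less RNA per cell and fewer cells with the transcript cannot be told apart.

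PDS1 had the highest mean of the 3 in every group but ho1C1 at 0.5 h, with group means from 84.97 RPKM in dark ho1C2 to 207.8 in ho1C1 at 0.5 h, a 2.45-fold range. ZEP1 ran from 36.24 RPKM in dark ho1C1 to 90.96 in ho1C2 at 0.5 h, a 2.51-fold range. CVDE1 ran from 10.56 RPKM in dark ho1C2 to 216.2 in ho1C1 at 0.5 h, a 20.5-fold range. The order of groups was similar at its ends. For each gene the 0.5 h groups of both lines were highest and the dark groups of both lines were lowest, and all groups at 4 h lay between them. On the log2(RPKM + 1) scale the range of group means was 1.28 for PDS1, 1.30 for ZEP1 and 4.23 for CVDE1, where the median range over tested genes was 1.12. Of the tested genes 39.4% had a range at least as wide as PDS1, 38.1% as wide as ZEP1 and 1.12% as wide as CVDE1. The widest gap between replicates of a group was 0.11 for PDS1, 0.10 for ZEP1 and 0.19 for CVDE1 on the same scale.

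**Figure D1:**
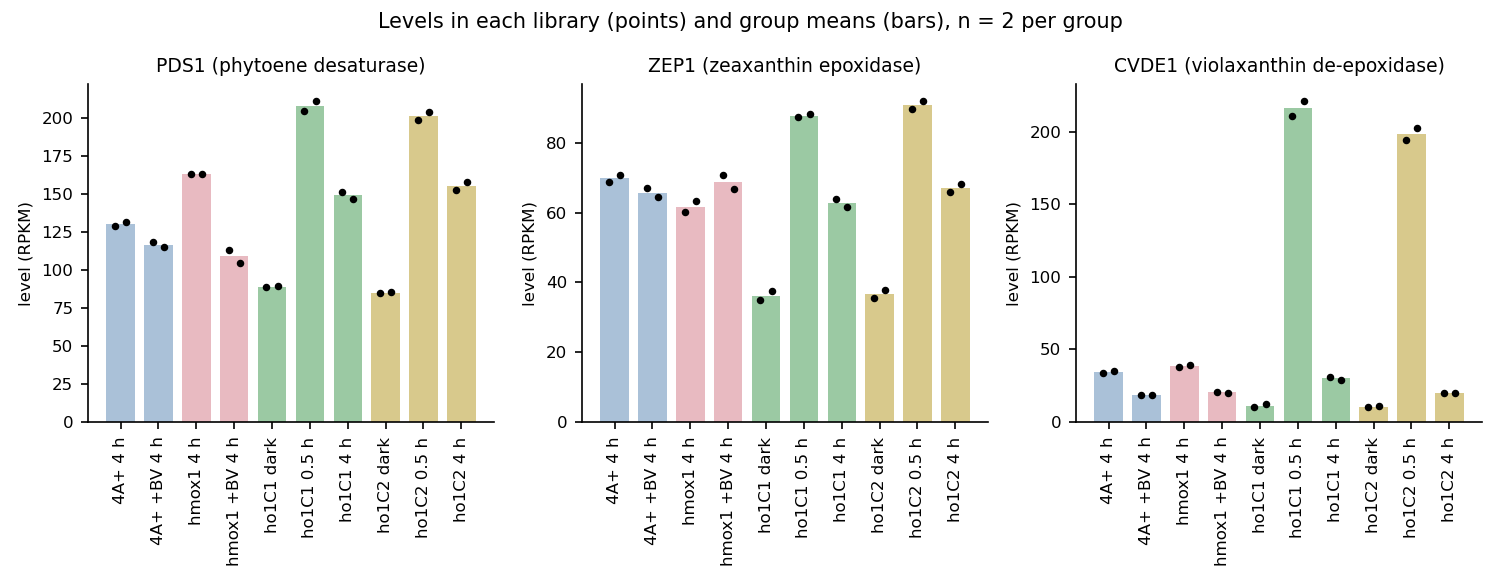
Level in RPKM (vertical axis, from 0) of PDS1, ZEP1 and CVDE1 in each of the 10 groups. Points are the 2 libraries of a group, bars are their mean, and colours mark the strain. The 0.5 h groups are highest for each gene, and CVDE1 stands between 194.1 and 221.5 RPKM there against 10.29 to 39.19 RPKM in the libraries of all other groups.

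The first question was how the genes answered the step from darkness to light in the complemented lines. All 3 rose within 0.5 h in both lines, CVDE1 by 19.1-fold and 18.8-fold and the others by 2.34-fold to 2.48-fold. Of all tested genes 21.7% rose in ho1C1 and 22.6% in ho1C2, and the median change of the tested genes was -0.38 and -0.31 on the log2 scale. In ho1C1 3010 genes rose and 8254 fell as deposited, against 5346 and 5244 with median-ratio factors, which bring the median near 0. In ho1C2 the same counts were 3129 and 7798 as deposited and 5264 and 5131 with these factors. The 3 genes rose under both scalings.

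PDS1 read 88.87 and 89.11 RPKM in the dark libraries of ho1C1 and 204.4 and 211.2 RPKM at 0.5 h. In ho1C2 it read 84.69 and 85.26 RPKM in the dark and 198.2 and 203.7 RPKM at 0.5 h. Dark and light libraries did not overlap in either line, though the share of tested genes without overlap was not counted, here or below. The means rose 2.34-fold in ho1C1 and 2.36-fold in ho1C2. The log2 change was 1.21 (SE 0.05, limma adjusted p = 4.53e-14) in ho1C1 and 1.23 (SE 0.05, limma adjusted p = 4.43e-14) in ho1C2. Of the tested genes 5.49% rose as much as PDS1 or more in ho1C1 and 4.82% in ho1C2.

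ZEP1, whose product removes zeaxanthin, moved by about the same factor as PDS1. It read 35 and 37.48 RPKM in dark ho1C1 and 87.56 and 88.19 RPKM at 0.5 h, a 2.42-fold rise (log2 change 1.26, SE 0.05, limma adjusted p = 2.81e-13). In ho1C2 it read 35.5 and 37.87 RPKM in the dark and 89.75 and 92.17 RPKM at 0.5 h, a 2.48-fold rise (1.29, SE 0.05, limma adjusted p = 2.44e-13). The dark libraries of the lines overlapped with each other, and in neither line did dark libraries overlap with those at 0.5 h.

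CVDE1, whose product forms zeaxanthin, was the least abundant of the 3 in the dark, at 10.51 and 12.1 RPKM in ho1C1 and 10.29 and 10.83 RPKM in ho1C2. After 0.5 h it read 210.8 and 221.5 RPKM in ho1C1 and 194.1 and 202.4 RPKM in ho1C2, levels close to those of PDS1 in the same libraries. The means rose 19.1-fold in ho1C1 (log2 change 4.14, SE 0.06, limma adjusted p = 2.36e-19) and 18.8-fold in ho1C2 (4.11, SE 0.06, limma adjusted p = 3.1e-19). Counting CVDE1 itself, 31 of the 13871 tested genes rose as much or more in ho1C1 and 23 in ho1C2.

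The early response was not found to differ between the lines for any of the 3 genes, at an adjusted or an unadjusted p under 0.05 in limma, where 1.71% of tested genes were called. The difference of the log2 change, ho1C2 minus ho1C1, was 0.018 for PDS1 (95% interval -0.12 to 0.15), 0.032 for ZEP1 (-0.13 to 0.19) and -0.037 for CVDE1 (-0.22 to 0.15). The limma adjusted p was 0.95, 0.918 and 0.919. The intervals leave room for differences of up to about 0.22 on the log2 scale.

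Between 0.5 h and 4 h all 3 genes fell in both lines, without returning to their dark levels. Of the tested genes 24.4% fell in ho1C1 and 26.4% in ho1C2, where the median change over all genes was 0.20 and 0.15. As deposited 6799 genes rose and 3387 fell in ho1C1 and 6188 and 3660 in ho1C2, and with median-ratio factors the counts were 4729 and 5155 and 4716 and 4935.

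PDS1 read 151.3 and 146.8 RPKM at 4 h in ho1C1 and 152.4 and 157.7 RPKM in ho1C2. The log2 change from 0.5 h was -0.48 (SE 0.05, limma adjusted p = 3.58e-08) and -0.37 (SE 0.05, limma adjusted p = 9.68e-07). PDS1 had thereby lost 39.3% of its early rise in ho1C1 and 30.2% in ho1C2, counted on the log2 scale. ZEP1 was alike, at 63.82 and 61.57 RPKM in ho1C1 and 66.08 and 68.16 RPKM in ho1C2, having lost 38.3% and 33.6% of its rise. Its log2 change from 0.5 h was -0.48 (SE 0.05, limma adjusted p = 2.82e-07) and -0.43 (SE 0.05, limma adjusted p = 1.14e-06). With median-ratio factors these falls were larger, at -0.78 and -0.58 for PDS1 and -0.78 and -0.64 for ZEP1.

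CVDE1 fell to 30.93 and 29.12 RPKM in ho1C1 and to 20.27 and 20.08 RPKM in ho1C2. The mean at 0.5 h was 7.20-fold that at 4 h in ho1C1 (log2 change -2.81, SE 0.06, limma adjusted p = 7.58e-17) and 9.83-fold in ho1C2 (-3.23, SE 0.06, limma adjusted p = 1.38e-17). It had lost 67.7% and 78.7% of its rise, and 39 and 27 tested genes fell as much or more, CVDE1 included.

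Set against darkness, the 4 h levels were higher for all 3 genes in both lines, where 26% of tested genes were higher in ho1C1 and 22.6% in ho1C2. With median-ratio factors the higher and lower genes went from 3601 and 6034 to 4801 and 4484 in ho1C1 and from 3135 and 6326 to 4353 and 4497 in ho1C2. The log2 change in ho1C1 was 0.74 for PDS1, 0.77 for ZEP1 and 1.34 for CVDE1, and in ho1C2 it was 0.86, 0.85 and 0.87 in the same order (SE 0.05 for PDS1 and ZEP1 and 0.06 for CVDE1, limma adjusted p at most 8.76e-10). In ho1C2 the 3 genes thus stood at about the same multiple of their dark level, 1.82-fold, 1.83-fold and 1.91-fold. In ho1C1 the multiples were 1.67-fold and 1.73-fold for PDS1 and ZEP1 and 2.66-fold for CVDE1. The 4 h change of CVDE1 differed between the lines, by -0.46 in ho1C2 against ho1C1 (95% interval -0.65 to -0.28, limma adjusted p = 0.00409), where 4.73% of tested genes were called. For PDS1 that difference was 0.12 (-0.015 to 0.26, adjusted p = 0.392, limma) and for ZEP1 0.08 (-0.082 to 0.24, adjusted p = 0.713, limma).

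**Figure D2:**
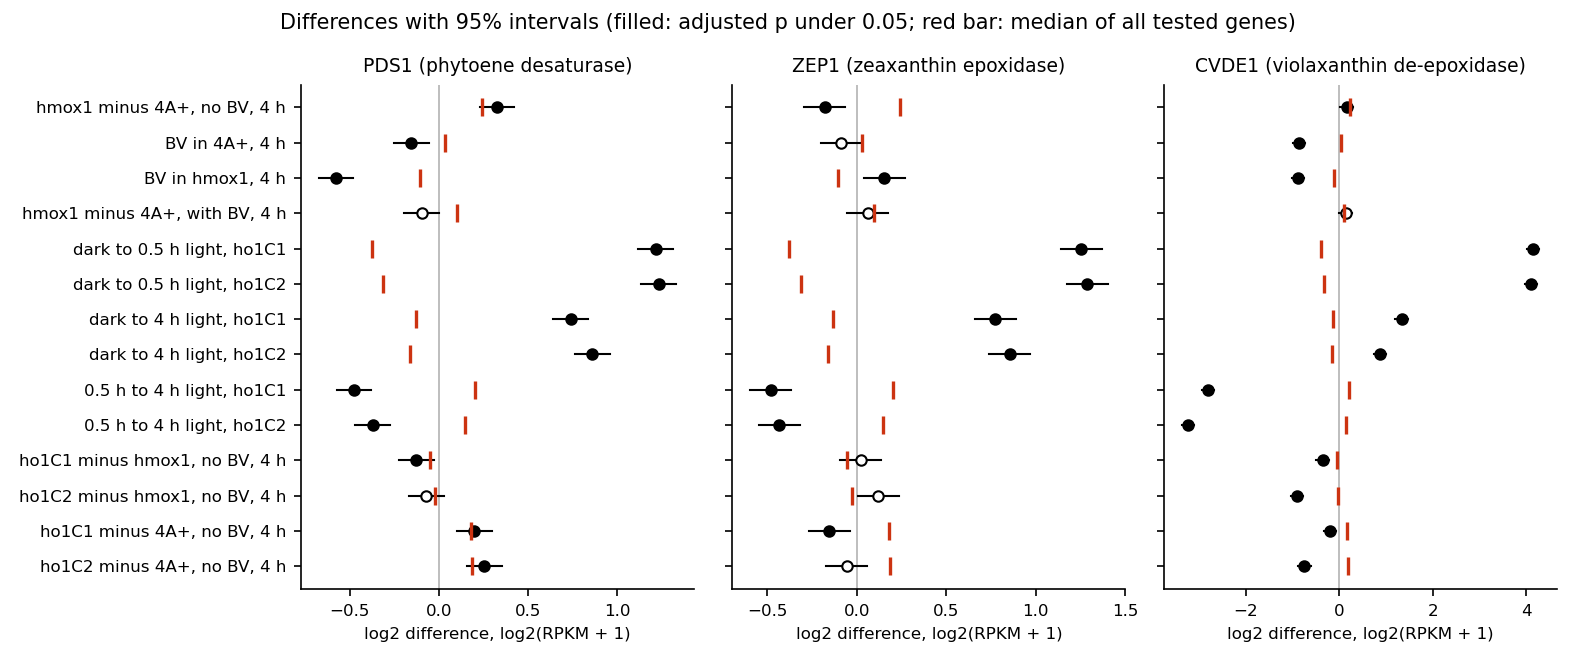
Log2 difference on the log2(RPKM + 1) scale (horizontal axis, own range per panel) of PDS1, ZEP1 and CVDE1 in the 14 comparisons of 2 groups. Circles are the differences with 95% intervals from limma, filled where the adjusted p is under 0.05, and red bars are the median of all tested genes. Light gives the largest values for each gene, up to 4.14 for CVDE1, and BV moves CVDE1 by -0.86 in 4A+ and -0.88 in hmox1.

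The second question was what BV did to these genes at 4 h of light. CVDE1 was lower with BV in both 4A+ and hmox1, PDS1 was lower in both and more so in hmox1, and ZEP1 was higher in hmox1 by an amount that varied with the scaling. In 4A+ 2 of the 3 genes were called and 59.5% of tested genes were, and in hmox1 all 3 were called and 58.2% of tested genes were. Being called was therefore usual in these comparisons, and the size of a change says more than its call.

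PDS1 in 4A+ read 128.5 and 131.2 RPKM without BV and 118 and 115.1 RPKM with it (log2 change -0.15, SE 0.05, limma adjusted p = 0.00741). Leaving out 4A+ replicate 2 without BV gave adjusted p = 0.0561, and leaving out 4A+ replicate 2 with BV gave adjusted p = 0.0621 (limma). In hmox1 PDS1 read 163 and 162.9 RPKM without BV and 112.9 and 104.8 RPKM with it, so that the mean without BV was 1.50-fold the mean with BV (-0.58, SE 0.05, limma adjusted p = 4.77e-09). The fall in hmox1 was the larger, by 0.42 on the log2 scale (difference -0.42, 95% interval -0.56 to -0.29, limma adjusted p = 6.48e-05). It was -0.25 with median-ratio factors (limma adjusted p = 0.00938) and -0.26 with upper-quartile factors (limma adjusted p = 0.00506). Of tested genes 33.6% were called in that test of the difference, and the 2 changes share no library. A fall with BV at least as large as that of PDS1 was found for 31.8% of tested genes in 4A+ and 13.4% in hmox1. With BV present the difference of hmox1 from 4A+ was -0.10 (95% interval -0.20 to -0.0016), which did not pass the threshold after adjustment (limma adjusted p = 0.0851). It passed at -0.26 with median-ratio factors (limma adjusted p = 0.000197), at -0.25 with upper-quartile factors (limma adjusted p = 0.000171) and at -0.15 without hmox1 replicate 1 with BV (limma adjusted p = 0.0252).

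ZEP1 read 68.83 and 70.85 RPKM in 4A+ without BV and 66.95 and 64.57 RPKM with it (log2 change -0.09, 95% interval -0.20 to 0.029, limma adjusted p = 0.187). In hmox1 it read 60.1 and 63.23 RPKM without BV and 70.71 and 66.81 RPKM with it (0.15, SE 0.05, limma adjusted p = 0.0209). The rise in hmox1 was 1.12-fold, and its adjusted p ran up to 0.153 when 1 library was left out. The difference of the BV change between the strains was 0.24 for ZEP1 (95% interval 0.079 to 0.40, limma adjusted p = 0.0217), a call that was lost without 4A+ replicate 2 with or without BV and without hmox1 replicate 1 with BV (adjusted p up to 0.086, limma). With only the groups compared in the fit, the adjusted p was 0.263 for the rise in hmox1 and 0.102 for the difference between strains (limma). Both values were larger under the other scalings. With median-ratio and upper-quartile factors the rise in hmox1 was 0.27 and 0.34 (limma adjusted p = 0.000324 and 5.16e-05), and the difference between strains was 0.41 and 0.40 (limma adjusted p = 0.000519 and 0.000907). The change in 4A+ passed the threshold with median-ratio factors, at -0.14 (limma adjusted p = 0.0342).

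CVDE1 read 33.63 and 35.26 RPKM in 4A+ without BV and 18.73 and 18.37 RPKM with it. In hmox1 it read 38.06 and 39.19 RPKM without BV and 20.83 and 20.18 RPKM with it. Libraries with and without BV did not overlap in either strain. Nor did those of ZEP1 in 4A+, whose change did not pass the threshold (limma adjusted p = 0.187). The mean of CVDE1 without BV was 1.86-fold that with BV in 4A+ and 1.88-fold in hmox1. The log2 change was -0.86 in 4A+ (SE 0.06, limma adjusted p = 1.31e-09) and -0.88 in hmox1 (SE 0.06, limma adjusted p = 1.17e-09). A fall at least as large was found for 4.79% of tested genes in 4A+ and 5.31% in hmox1. The difference between the strains was -0.024 (95% interval -0.21 to 0.16, limma adjusted p = 0.865).

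The third question was how hmox1 differed from 4A+ at 4 h. Without BV all 3 genes were called, as were 65.2% of tested genes, but the differences were small and moved with the scaling of the libraries. PDS1 was 1.25-fold higher in hmox1 (log2 difference 0.33, SE 0.05, limma adjusted p = 7.54e-06), yet the median over all tested genes was itself 0.24, and with median-ratio factors the difference was -0.014 (adjusted p = 0.815, limma). CVDE1 was 1.12-fold higher in hmox1 as deposited (0.16, SE 0.06, limma adjusted p = 0.0327) and lower with median-ratio factors (-0.17, adjusted p = 0.0239, limma). ZEP1 was lower in hmox1 under each scaling, at -0.18 as deposited (SE 0.05, limma adjusted p = 0.00833) and -0.51 with median-ratio factors (adjusted p = 3.58e-07, limma). Without 4A+ replicate 2 the deposited value of ZEP1 was -0.16 (adjusted p = 0.0609, limma). With only these groups in the fit the adjusted p was 0.118 for ZEP1 and 0.165 for CVDE1 (limma). Among all tested genes 7418 were higher and 1632 lower in hmox1 as deposited, against 4166 and 4198 with median-ratio factors. Set against the median of all genes, the deposited differences were 0.08 for PDS1, -0.42 for ZEP1 and -0.08 for CVDE1. With BV none of the 3 genes was called by limma, against 49.9% of tested genes, while at an unadjusted p under 0.05 PDS1 and CVDE1 passed. PDS1 was called under both other scalings, as given above. The differences of ZEP1 and CVDE1 there were 0.06 (95% interval -0.051 to 0.18) and 0.14 (0.0045 to 0.27). With median-ratio factors their sign turned, to -0.10 and -0.022, and it did so with upper-quartile factors too, to -0.091 and -0.011, none of these past the threshold.

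The fourth question was where the complemented lines stood at 4 h without BV. CVDE1 was lower in both lines than in hmox1 and 4A+, and most so in ho1C2. Its levels in ho1C2, at 20.27 and 20.08 RPKM, overlapped with the hmox1 libraries given BV, at 20.83 and 20.18 RPKM, and lay above those of 4A+ given BV. The mean of hmox1 was 1.91-fold that of ho1C2 (log2 difference of ho1C2 minus hmox1 -0.90, SE 0.06, limma adjusted p = 3.03e-09) and 1.29-fold that of ho1C1 (-0.35, SE 0.06, limma adjusted p = 0.000414). Against 4A+ the differences of CVDE1 were -0.74 in ho1C2 (SE 0.06, limma adjusted p = 1.64e-08) and -0.19 in ho1C1 (SE 0.06, limma adjusted p = 0.0161). The ho1C1 call against 4A+ was lost without 4A+ replicate 2 (adjusted p = 0.112, limma) and without ho1C1 replicate 2 at 4 h (adjusted p = 0.126, limma). It was kept at -0.45 with median-ratio factors and at -0.37 with upper-quartile factors (limma adjusted p = 1.25e-05 and 0.000119). The difference of ho1C1 from hmox1 was -0.22 with upper-quartile factors (limma adjusted p = 0.0163). Of tested genes 2.33% were at least as much lower in ho1C2 than in hmox1, and 1.53% than in 4A+. For ho1C1 these shares were 10.9% and 10.3%. These comparisons share the 4 h libraries, so their values are set side by side without being counted as separate evidence.

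For PDS1 and ZEP1 the differences of the lines from hmox1 were at most 0.13 in size as deposited. PDS1 was lower in ho1C1 than in hmox1 by a margin that hardly passed the threshold (-0.13, SE 0.05, limma adjusted p = 0.0466), did not pass it when any of the 4 libraries was left out, and was 0.0062 with upper-quartile factors. In ho1C2 its difference from hmox1 was -0.07 (limma adjusted p = 0.24). ZEP1 differed from hmox1 by 0.02 in ho1C1 (95% interval -0.09 to 0.14, limma adjusted p = 0.787) and by 0.12 in ho1C2 (0.0065 to 0.23, limma adjusted p = 0.0886). The ho1C2 value passed the threshold at 0.16 with median-ratio and 0.25 with upper-quartile factors (limma adjusted p = 0.0252 and 0.00162), and the ho1C1 value at 0.16 with upper-quartile factors (limma adjusted p = 0.0491). In the comparisons with hmox1, 2 of the 3 genes were called in ho1C1 and 1 in ho1C2, where 27.7% and 38.9% of tested genes were called.

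Against 4A+ PDS1 was higher as deposited, by 0.20 in ho1C1 (limma adjusted p = 0.00155) and 0.25 in ho1C2 (limma adjusted p = 0.000139). With median-ratio factors the values were -0.065 and -0.045, neither past the threshold. ZEP1 was at -0.15 in ho1C1 (limma adjusted p = 0.0241) and -0.06 in ho1C2 (limma adjusted p = 0.392). The ho1C1 call for ZEP1 was lost when either 4A+ library or ho1C1 replicate 2 at 4 h was left out (adjusted p up to 0.135, limma). With median-ratio and upper-quartile factors ZEP1 was lower than in 4A+ in both lines. The values were -0.41 and -0.33 in ho1C1 (limma adjusted p = 6.6e-06 and 8.91e-05) and -0.35 and -0.24 in ho1C2 (limma adjusted p = 2.82e-05 and 0.00177). All 3 genes were called in ho1C1 and 2 in ho1C2, where 53.3% and 56.4% of tested genes were called.

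The ratio of a pair of these genes within a library does not depend on how libraries are scaled. The ratios were not tested and are given as values. The ratio of ZEP1 to CVDE1, the transcripts for the opposite arms of the xanthophyll cycle, was 3.33 and 3.10 in dark ho1C1 and 3.45 and 3.50 in dark ho1C2. It turned over at 0.5 h, to 0.415 and 0.398 in ho1C1 and 0.462 and 0.455 in ho1C2, and so CVDE1 exceeded ZEP1 there and in none of the other groups. At 4 h it was 2.06 and 2.11 in ho1C1 and 3.26 and 3.39 in ho1C2, the latter close to the dark ratio.

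BV moved the same ratio upward. It was 2.05 and 2.01 in 4A+ without BV and 3.57 and 3.51 with BV. In hmox1 it was 1.58 and 1.61 without BV, the lowest of the groups at 4 h, and 3.39 and 3.31 with BV. Without BV the 2 hmox1 libraries thus lay below both 4A+ libraries, and with BV the ratio in both strains was in the range of 3.10 to 3.57 that also held the dark libraries and ho1C2 at 4 h.

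PDS1 over ZEP1 ranged from 1.57 to 2.71. In the complemented lines it stayed between 2.21 and 2.54 from darkness to 4 h. In 4A+ it was lower, at 1.87 and 1.85 without BV and 1.76 and 1.78 with BV. In hmox1 it was 2.71 and 2.58 without BV, the highest of the 10 groups, and 1.60 and 1.57 with BV, the lowest.

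**Figure D3:**
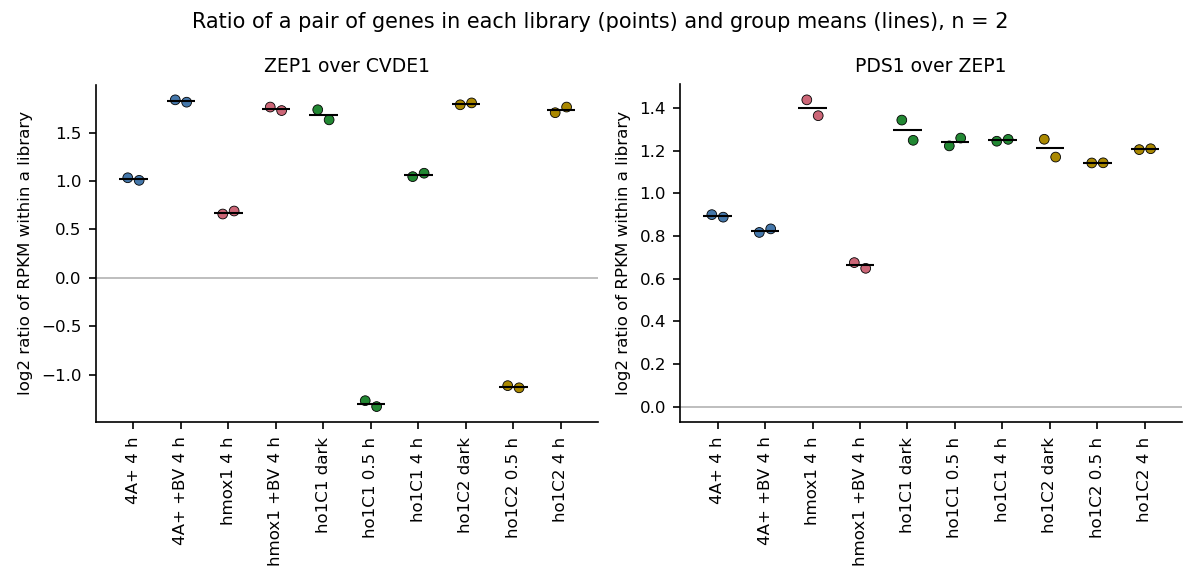
Log2 ratio of RPKM within each library (vertical axis) of ZEP1 over CVDE1 and of PDS1 over ZEP1 in the 10 groups. Points are the 2 libraries of a group, lines are their mean, and colours mark the strain. ZEP1 over CVDE1 is below 0 at 0.5 h and above 0 in all other groups, and PDS1 over ZEP1 is highest in hmox1 without BV and lowest in hmox1 with BV.

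The 3 genes resembled each other over the 10 group means of log2(RPKM + 1), with r of 0.86 for PDS1 and ZEP1, 0.89 for PDS1 and CVDE1 and 0.81 for ZEP1 and CVDE1. Without the 0.5 h groups the values over 8 means were 0.76, 0.86 and 0.78. Those means still hold the dark and 4 h groups. The share of tested genes that reach such r was not counted. The means come from the same libraries, and their depth and scaling are common to the genes.

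The transcripts most like each gene were then picked by the highest Pearson's r over the 10 group means. Candidates came from the 7464 tested genes with a range of at least 1 on that scale and a mean of at least 1 RPKM. The highest r of so many cannot be compared with the r of fixed pairs above. PDS1 was most like Cre17.g731050 (r = 0.9897), Cre07.g315150 (0.9874) and Cre10.g448050 (0.9873). Cre17.g731050 made the larger movements of PDS1 on a wider scale. It rose from 3.76 RPKM in dark ho1C1 to 88.02 RPKM at 0.5 h. In hmox1 it went from 32 RPKM to 10.22 RPKM with BV. Some smaller differences went the other way from PDS1. At 4 h Cre17.g731050 was lower in ho1C2 than in ho1C1 (23.895 and 28.495 RPKM). With BV it was higher in hmox1 than in 4A+ (10.22 and 9.145 RPKM). ZEP1 was most like g798 (0.9899), Cre09.g397250 (0.9785) and g8373 (0.9739). CVDE1 was most like Cre13.g562650 (0.9949), Cre10.g419650 (0.9914) and Cre12.g551100 (0.9909), of which Cre12.g551100 came nearest in size, from 12.49 RPKM in dark ho1C1 to 142.6 RPKM at 0.5 h. The IDs have no names in the sources used here.

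**Figure D4:**
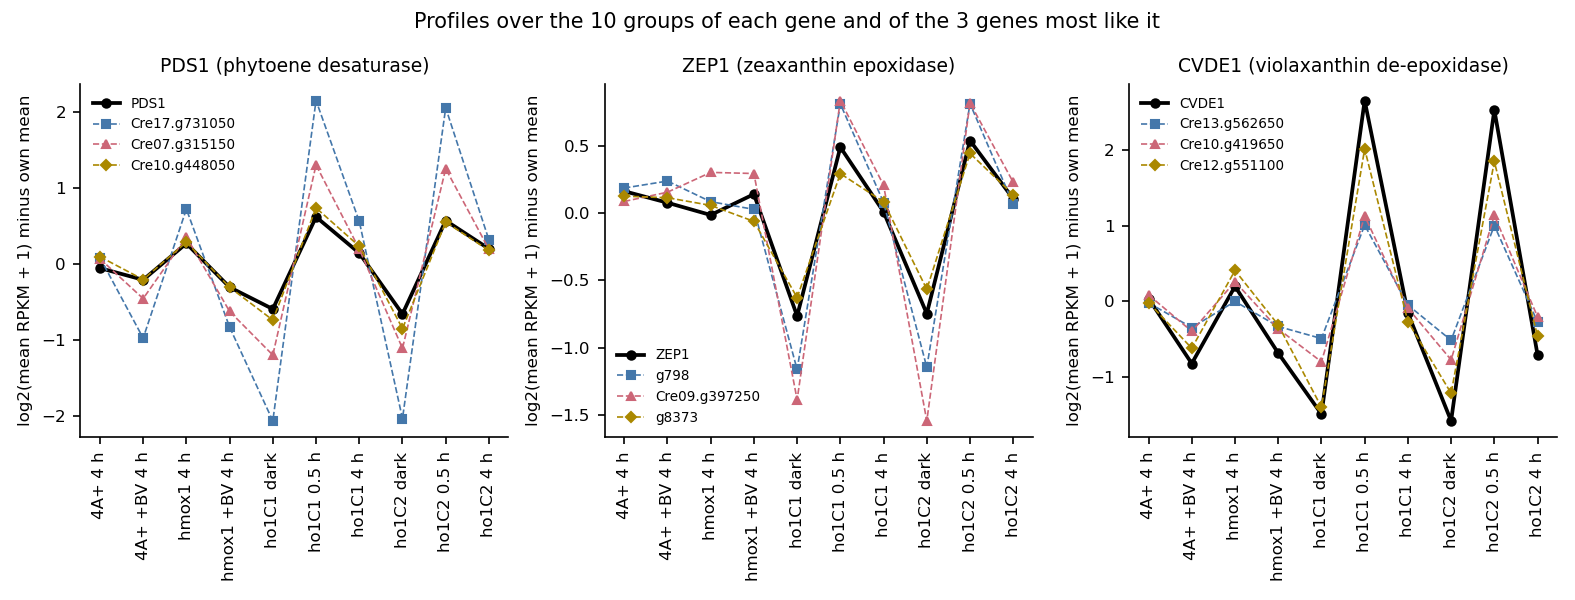
Profile over the 10 groups (horizontal axis) of log2(mean RPKM + 1) minus the gene's own mean (vertical axis, own range per panel) for PDS1, ZEP1 and CVDE1 in black and for the 3 genes most like each in colour. The black line of CVDE1 rises further at 0.5 h than those of the 3 genes beside it, and that of PDS1 moves less than Cre17.g731050.

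The genes beside them on the chromosome, in the gene order of RefSeq assembly Chlamydomonas_reinhardtii_v5.5, were looked at after these values were known. Only the gene just before and the gene just after each, by start position, were compared. No annotated span of these neighbours overlapped that of PDS1, ZEP1 or CVDE1 there, and the labels do not name the build the authors used. Cre02.g082576, on one side of ZEP1, is not among the deposited IDs, so no level is given for it. Beside CVDE1, Cre04.g221500 also stood higher at 0.5 h, at 2.75 RPKM in the dark and 6.94 RPKM at 0.5 h in ho1C1 (log2 change 1.09) and at 2.62 and 8.14 RPKM in ho1C2 (1.34). It was also lower with BV, at 3.575 RPKM without BV and 1.205 RPKM with BV in 4A+ and at 3.145 and 1.04 RPKM in hmox1. Cre04.g221600 on the other side of CVDE1 was at 0.19 to 1.445 RPKM. Its mean went from 0.66 to 0.29 RPKM with BV in 4A+ and from 0.845 to 1.175 RPKM in hmox1. Beside PDS1, Cre12.g509700 went the other way at 0.5 h, from 7.83 to 2.04 RPKM in ho1C1 (-1.54), and Cre12.g509600 on its other side changed by 0.18 in ho1C1, where the means were 5.38 and 6.215 RPKM, and by 0.37 in ho1C2, where they were 4.945 and 6.665 RPKM. The abundant Cre02.g082500 beside ZEP1 changed by -0.15 in ho1C1 and -0.27 in ho1C2. With BV its mean went from 861.6 to 1400 RPKM in 4A+ and from 873.5 to 1264 RPKM in hmox1. With BV the mean of Cre12.g509700 went from 4.26 to 4.345 RPKM in 4A+ and from 4.845 to 4.47 RPKM in hmox1. That of Cre12.g509600 went from 3.72 to 2.84 RPKM in 4A+ and from 3.88 to 2.86 RPKM in hmox1. No test is given for the neighbours, and no share of all genes was counted.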

How the data were processed

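RNA was sequenced as single-end reads for 20 libraries in 10 groups of 2, which were set by strain, BV and light from the sample titles. STAR 2.3.0 and HTSeq were used, per the submitters' processing notes, which were read without their roles, genome build, annotation or strand setting. The authors deposited 1 table with a column per library. Its deposited values are taken as RPKM, reads scaled to gene length and library size, which neither the labels nor the header state. Column sums differ and low values fall in steps, which by itself does not show a scaling to gene length. RPKM moves with every abundant gene of a library. Steps in 987 low values of 107 genes gave relative depth, and 90.5% of them lay within 0.005 RPKM plus 2% of a whole multiple. Absolute depth is unknown, so no counting interval is given.

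The tested genes (13871, with 3866 left out) reached 1 RPKM in 2 libraries or more. They entered limma 3.58.1 (R 4.3.3) as log2(RPKM + 1), with trend and robust moderation, in 1 fit of all 20 libraries with 10 residual degrees of freedom. Differences on this scale understate changes of low genes. There were 14 comparisons of 2 groups and 3 tests of a difference between responses, 17 in all. Alternatives changed the pseudocount to 0.1, the filter, the scaling (median-ratio and upper-quartile factors), the moderation, the groups in the fit and the replicate block, and left out each library in turn. The members, comparisons and lists were chosen with earlier results of these data known. Besides the 3 genes, the text names by rule the 3 IDs most like each. RefSeq's gene table held 11713 of the IDs (66%), with 0 symbols other than locus tags. Other carotenoid genes and HMOX1, to be found by name, are therefore not analysed here, nor are protein sequences.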

Additional observations from a re-analysis of the deposited data

Results flagged for a closer look

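Responses that differed between strains or lines in a test of the difference itself are given here as values. Of tested genes 33.6% were called for the BV change between strains and 4.73% for the 4 h change between lines. The median difference over tested genes was -0.12 and -0.011. Differences at least as large in the same direction were found for 20.2% of tested genes (PDS1), 11.8% (ZEP1) and 2.90% (CVDE1). For PDS1 the change with BV was -0.58 in hmox1 and -0.15 in 4A+, a difference of -0.42 on the log2(RPKM + 1) scale (limma adjusted p = 6.48e-05; -0.25 with median-ratio and -0.26 with upper-quartile factors), and the libraries with BV were lower in both strains. For ZEP1 the change with BV was 0.15 in hmox1 and -0.09 in 4A+, a difference of 0.24 (limma adjusted p = 0.0217). It was 0.41 with median-ratio and 0.40 with upper-quartile factors. This ZEP1 call was lost with only the groups compared in the fit (limma adjusted p = 0.102). It was also lost without some single libraries, as given above, where the difference ran from 0.20 to 0.28. For CVDE1 the change from darkness to 4 h of light was 0.87 in ho1C2 and 1.34 in ho1C1, a difference of -0.46 (limma adjusted p = 0.00409), with higher levels at 4 h in all 4 libraries. The hmox1 pair without BV, which enters the first 2 of these, had the widest spread between replicates (median absolute log2 difference 0.155); its part in these results was not tested beyond leaving out each library.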

How the results depend on the processing

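Depth limits the low levels most, and 2 libraries a group make small differences depend on single libraries and on the scaling. Of the 51 differences of PDS1, ZEP1 and CVDE1, 37 passed the threshold, and 26 of these kept their direction and call under every alternative run. These 26 include the changes of all 3 genes between darkness, 0.5 h and 4 h in both lines, the BV changes of CVDE1 in both strains and of PDS1 in hmox1, and the lower CVDE1 of ho1C2 against hmox1 and 4A+. The other 11 are the values that lost their call or turned below. All values below are log2 differences on the log2(RPKM + 1) scale with adjusted p from limma, and the cause of a change was not tested.

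With median-ratio factors, hmox1 minus 4A+ without BV was -0.0142 for PDS1 and -0.172 for CVDE1, and with BV it was -0.264 for PDS1 (past the threshold), -0.102 for ZEP1 and -0.0218 for CVDE1. The BV change of ZEP1 in 4A+ was -0.138 (limma adjusted p = 0.0342), and the strain difference of the BV change of CVDE1 was 0.150. PDS1 was at -0.0509 in ho1C1 minus hmox1, at -0.0651 in ho1C1 minus 4A+ and at -0.0446 in ho1C2 minus 4A+. ZEP1 was at 0.161 in ho1C2 minus hmox1 and -0.353 in ho1C2 minus 4A+, both past the threshold. The line difference at 0.5 h was -0.0678 for PDS1 and -0.0532 for ZEP1.

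With upper-quartile factors, hmox1 minus 4A+ without BV was 0.00884 for PDS1 and -0.149 for CVDE1, and with BV it was -0.253 for PDS1 (past the threshold), -0.0907 for ZEP1 and -0.0110 for CVDE1. The strain difference of the BV change of CVDE1 was 0.138. PDS1 was at 0.00624 and 0.0626 and ZEP1 at 0.156 and 0.253 in ho1C1 and ho1C2 minus hmox1, and both ZEP1 values passed the threshold. Against 4A+, PDS1 was at 0.0151 in ho1C1 and 0.0714 in ho1C2, and ZEP1 at -0.238 in ho1C2 (past the threshold). The line difference at 0.5 h was -0.0179 for PDS1 and -0.00374 for ZEP1.

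With only the groups compared, which leaves fewer samples for the spread, these no longer passed: hmox1 minus 4A+ without BV at -0.177 for ZEP1 and 0.161 for CVDE1, the BV change of ZEP1 in hmox1 at 0.155 and its strain difference at 0.240, and PDS1 in ho1C1 minus hmox1 at -0.128 (limma adjusted p = 0.360). Without trend or robust moderation the last was -0.128 (limma adjusted p = 0.104).

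Leaving out 1 library, where a group's lone library is assumed to vary like the other groups, moved hmox1 minus 4A+ without BV from -0.213 to -0.141 for ZEP1 and from 0.128 to 0.194 for CVDE1. With BV it ran from -0.152 to -0.0446 for PDS1. The BV change ran from -0.173 to -0.137 for PDS1 in 4A+ and from 0.114 to 0.195 for ZEP1 in hmox1, and its strain difference from 0.200 to 0.281 for ZEP1 and from -0.0568 to 0.00951 for CVDE1. Against hmox1 the range was -0.149 to -0.106 for PDS1 and -0.0123 to 0.0598 for ZEP1 in ho1C1, and 0.0847 to 0.157 for ZEP1 in ho1C2. For ho1C1 minus 4A+ it was -0.179 to -0.128 for ZEP1 and -0.234 to -0.150 for CVDE1. The line difference at 0.5 h ran from -0.00581 to 0.0410 for PDS1, -0.0162 to 0.0799 for ZEP1 and -0.130 to 0.0566 for CVDE1.

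With a pseudocount of 1 the log2 ratio of ZEP1 to CVDE1 moved by more than the spread between replicates, to 0.999 in 4A+, 1.77 in 4A+ with BV, 1.70 in hmox1 with BV, 1.60 in dark ho1C1, 1.70 in dark ho1C2 and 1.69 in ho1C2 at 4 h. That of PDS1 to CVDE1 moved to 1.88, 2.59, 2.35, 2.27, 2.90 and 2.88 in 4A+, 4A+ with BV, hmox1 with BV, ho1C1 at 4 h, dark ho1C2 and ho1C2 at 4 h. That of PDS1 to ZEP1 moved to 0.885, 1.24, 1.13 and 1.20 in 4A+, ho1C1 at 4 h, ho1C2 at 0.5 h and ho1C2 at 4 h.

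Genes called in ho1C1 minus hmox1 went from 3849 to 1212 with only the groups compared and to 2474 and 2564 without either ho1C1 library, and in ho1C2 minus hmox1 from 5401 to 2566 with only the groups compared. For the line difference at 0.5 h the count was 237, 502 with only the groups compared, and 53 to 137 with 1 library left out. At 4 h it was 656, and 376 to 432 for 7 of the 8 libraries left out. Replicate numbers were not taken to pair libraries, since not every pair of groups had a correlation over 0.1. Over 45 pairs of groups the correlation of deviations ran from -0.098 to 0.33 (median 0.079), with 16 over 0.1. As a hint from the data and not from the design, in all 10 groups libraries deviated on average with the same number elsewhere. A replicate block changed 0 calls of the 3 genes (PDS1 in hmox1 minus 4A+ kept 0.33, limma adjusted p = 6.77e-06) and changed counts of genes called by 1.01 to 1.30 times.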
